A study of Mus musculus with 55 samples.

Results

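The Toll-like receptors and 2 of their partners were followed across 10 populations sorted from mouse liver. The 10 genes were Tlr1, Tlr2, Tlr3, Tlr4, Tlr5, Tlr7, Tlr8, Tlr9, Cd14 and Ly96. They were taken by symbol from 24478 symbols in the expression table, and Tlr1, Tlr7, Tlr8 and Ly96, which have more than 1 row, are given by the row of highest overall mean. All 10 were found.

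The study measured RNA by sequencing in 55 libraries from C57B/L6 mouse liver, 27 of normal liver and 28 taken after partial hepatectomy (PH, surgical removal of part of the liver, which starts regeneration). The populations, sorted by flow cytometry into TRIzol, were Kupffer cells (KC, the resident macrophages), blood cells, liver sinusoidal endothelial cells (LSEC), endothelial cells (EC), hepatic stellate cells (HSC), Thy1 cells, non progenitor ducts (NPD), biliary epithelial cells (BEC), clonal biliary epithelial cells (cBEC) and hepatocytes (HC). In normal liver BEC, cBEC and HC had 4 libraries each, LSEC had 3 and every other population had 2. After PH LSEC had 5, HC had 4, KC, EC and HSC had 3 each and the rest had 2. No genotype, transgene or drug is named for any group, and the age of the mice, the time after surgery and the sorting markers are not given in the sources used here. Nothing in the labels says that replicates came from separate animals, so p-values measure the spread between these libraries, which may be technical. The library titled PH cBEC 1 carries a treatment tag of normal and was kept as titled.

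Toll-like receptors are membrane proteins that recognise molecules shared by microbes. Tlr4 with its partner Ly96 (MD-2) binds bacterial lipopolysaccharide, which Cd14 hands over. Tlr2 pairs with Tlr1 to bind bacterial lipopeptides, and Tlr5 binds flagellin. Tlr3, Tlr7, Tlr8 and Tlr9 sit in endosomes and sense nucleic acids. Signals pass through the adaptors Myd88 and Ticam1 (TRIF) to NF-kappa B and interferon regulatory factors. The liver receives portal blood from the gut, and Kupffer cells are known to clear microbial products from it.

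Levels are FPKM (sequenced fragments scaled by transcript length and by library size), and tests used log2(FPKM + 1) with limma and Benjamini-Hochberg adjustment over all genes tested, with an adjusted p under 0.05 called. The read depth is unknown, so no counting interval is given. Replicates correlated at 0.919 to 0.996 on the log2 scale. Within each treatment the Kupffer, hepatocyte, stellate and biliary marker lists were highest in the sorts of those labels. The sinusoidal list overlapped between EC and LSEC, and the list for Thy1 cells and mesothelium summed to 3154 to 5665 FPKM in NPD against 899 to 3764 in the Thy1 sort. Kupffer markers summed to 10969 and 19203 FPKM in PH blood, a range that holds that of normal KC (14599 to 16178). Sinusoidal markers summed to 2580 and 5828 FPKM in PH blood, within the range of PH LSEC (1794 to 5853). They were also present in normal KC, with the values given beside the results. Transcripts abundant in hepatocytes were often listed at 0 elsewhere, at 6.67% of values for genes of at least 300 FPKM in hepatocytes against 0.487% for genes under 30 FPKM there. All 10 genes were under 30 FPKM in hepatocytes.

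Promoters were matched in RefSeq (GRCm38.p6) for 6 of the 10 genes. Those of Tlr1, Tlr8 and Tlr9, whose transcripts were highest in KC or PH blood, are shown beside that of Tlr5, whose transcript was high in the biliary sorts. Those of Tlr2, also highest in KC, and Tlr3 were searched but are not shown. Each is the 250 bases before the start, 5′ to 3′ on the gene's strand. Capitals mark GAGGAA or its reverse complement TTCCTC, the core letters bound by the myeloid factor PU.1. The windows lie at chr5:64932700-64932949 (minus strand) for the Tlr1 transcript of the row used, chr5:64933559-64933808 (minus) for the Tlr1 transcript that starts 859 bases upstream, chrX:167264330-167264579 (minus) for Tlr8, chr9:106222348-106222597 (plus) for Tlr9 and chr1:182954538-182954787 (plus) for Tlr5.
Tlr1, row used: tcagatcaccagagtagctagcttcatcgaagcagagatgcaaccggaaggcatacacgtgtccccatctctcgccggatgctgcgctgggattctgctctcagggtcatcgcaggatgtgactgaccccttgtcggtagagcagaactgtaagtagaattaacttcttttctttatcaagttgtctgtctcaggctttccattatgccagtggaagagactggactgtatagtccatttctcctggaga
Tlr1, upstream start: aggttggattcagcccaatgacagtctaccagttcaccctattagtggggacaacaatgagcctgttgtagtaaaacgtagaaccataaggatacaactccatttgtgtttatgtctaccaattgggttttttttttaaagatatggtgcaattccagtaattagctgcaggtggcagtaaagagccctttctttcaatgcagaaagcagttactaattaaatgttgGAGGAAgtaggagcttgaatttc
Tlr8: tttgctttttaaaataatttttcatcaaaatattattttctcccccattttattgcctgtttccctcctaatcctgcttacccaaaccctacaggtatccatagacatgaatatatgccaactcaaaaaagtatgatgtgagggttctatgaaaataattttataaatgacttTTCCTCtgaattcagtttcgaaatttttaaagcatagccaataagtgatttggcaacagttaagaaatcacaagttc
Tlr9: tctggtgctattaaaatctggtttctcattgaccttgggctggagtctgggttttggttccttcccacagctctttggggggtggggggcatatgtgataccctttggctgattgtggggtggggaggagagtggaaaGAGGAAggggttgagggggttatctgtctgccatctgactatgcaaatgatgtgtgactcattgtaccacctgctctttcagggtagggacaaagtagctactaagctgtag
Tlr5: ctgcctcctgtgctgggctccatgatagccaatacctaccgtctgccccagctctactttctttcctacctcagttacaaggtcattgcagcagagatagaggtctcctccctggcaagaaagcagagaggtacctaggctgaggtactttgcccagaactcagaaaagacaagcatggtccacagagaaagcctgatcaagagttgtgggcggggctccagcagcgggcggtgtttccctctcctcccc

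The 6 letters were 23 bases before the upstream Tlr1 start, 77 before the Tlr8 start and 112 before the Tlr9 start, counted to the match. They were not found in the window of the Tlr1 row used or in those of Tlr2, Tlr3 and Tlr5, although Tlr2 was also highest in KC. Searched the same way, 23.4% of 32536 RefSeq mouse promoters hold them. The Tlr9 window also held TGACTCA, a match to the AP-1 letters TGANTCA, 58 bases before the start (6.73% of promoters). The Tlr3 window held GGGAGTTTCC, a match to the kappa B motif searched on both strands, 211 bases before the start (1.40% of promoters). A match describes letters only, since no binding was measured.

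**Figure D1:**
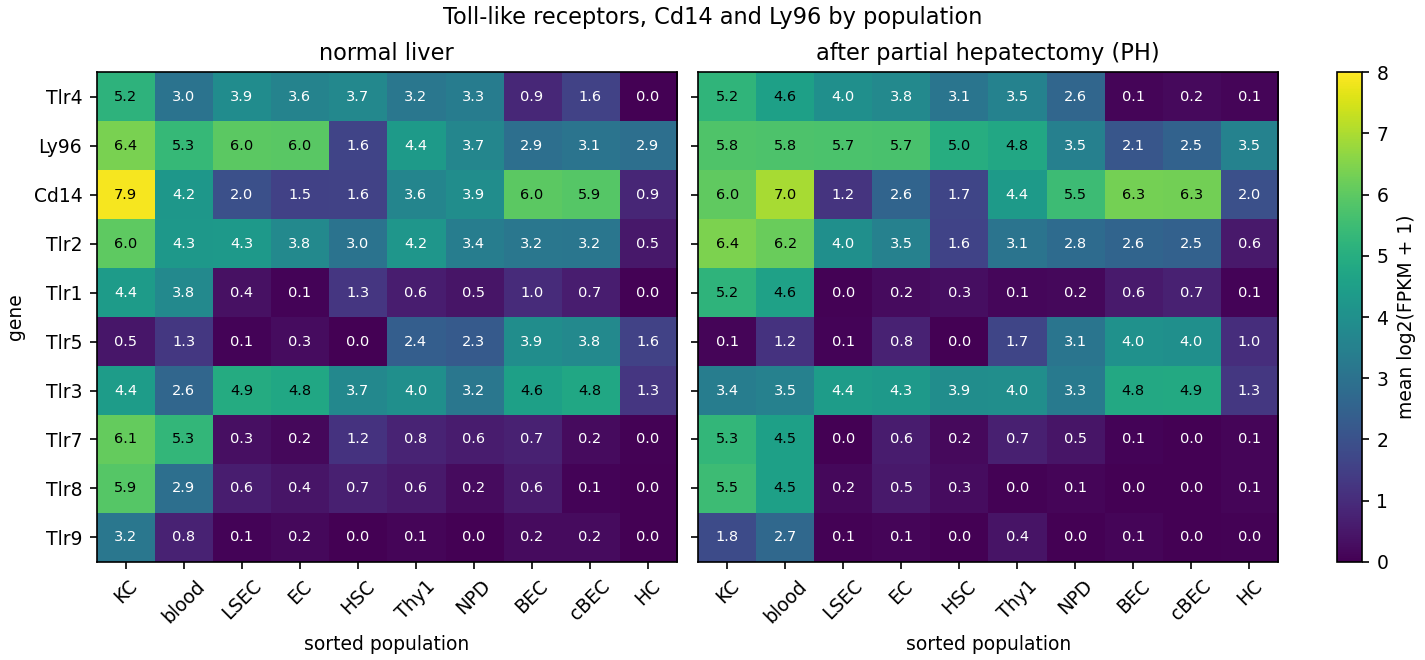
Mean log2(FPKM + 1) of the 10 genes (rows) in each sorted population (columns) in normal liver (left) and after PH (right), with 2 to 5 libraries a group. Tlr1, Tlr7 and Tlr8 are highest in the KC and blood columns, Tlr9 in KC and PH blood, and Tlr5 in the biliary columns. Tlr3 is spread over the columns, lowest in HC and, in normal liver, next lowest in blood.

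In normal liver the KC sort was above the mean of the other populations for 8 of the 10 genes, all but Tlr3 and Tlr5 (background 16.9% of all genes tested). After PH the same test called those 8 genes in KC (background 23.6%). Blood was above the others for 4 genes in normal liver (Tlr1, Tlr7, Tlr8 and Tlr9, background 36.6%) and for 8 after PH (all but Tlr3 and Tlr5, background 18.6%). Outside KC and blood, no library reached 1 FPKM of Tlr9 in either treatment or of Tlr1 after PH. For Tlr8 after PH 1 did. These genes passed the filter only through the KC and blood sorts, so their calls there are not independent of it. Over all populations 27 of 100 gene and population pairs were called higher in normal liver, against 22.5% of all genes, and 30 of 100 after PH, against 20.7%. HSC (Tlr4, background 13.5%), Thy1 cells (Tlr5, background 20.1%) and NPD (Tlr5, background 18.8%) had 1 call each in normal liver. After PH NPD had Tlr5 (background 24.4%), and HSC and Thy1 cells had none (backgrounds 17.4% and 17.9%; 1 gene each was higher at an unadjusted p under 0.05). The hepatocyte sort was called higher for none of the 10 genes (limma, 0 also at an unadjusted p under 0.05). It was lower for 9 in normal liver and 10 after PH, beside a background of 67.6% and 66.8% of all genes lower in hepatocytes. In sorted bulk RNA, more cells that carry a transcript and more transcript in each cell cannot be told apart.

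The lipopolysaccharide receptor Tlr4 (mm9 chr4:66488585-66507615, plus strand) was highest in KC. Its levels were 34.2 and 35.4 FPKM in the normal KC libraries and 38.7, 41.2 and 30.3 after PH. Normal blood had 7.17 and 7.24 FPKM, and PH blood 16.4 and 30.9. The KC libraries lay above all normal blood libraries, while PH blood reached into the PH KC range. Normal LSEC followed at 13.8 ± 0.54 FPKM (SD, n = 3), with HSC, EC and NPD behind it and each overlapping its neighbour. In normal liver the contrast with the other populations was 2.58 (log2, SE 0.38, adjusted p 1.09e-05) in KC, 1.16 (SE 0.31, adjusted p 0.00481) in LSEC and 0.99 (SE 0.38, adjusted p 0.0372) in HSC. In BEC Tlr4 did not exceed 1.74 FPKM in any library, and in hepatocytes 0.16. Normal cBEC library 1 stood at 8.69 FPKM against 0.544 to 1.36 in the other cBEC libraries of normal liver. That library also had a summed level of 509 FPKM for the Thy1 cell and mesothelium markers, against 145 to 179 in the other normal cBEC libraries. The part of these markers in the value was not tested.

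Ly96, the lipopolysaccharide-binding partner of Tlr4 (chr1:16678537-16699686, plus), was shared by macrophages and endothelium. Normal KC held 75.6 and 89.8 FPKM, normal LSEC 50.3, 69.7 and 70.4, and normal EC 79.6 and 46.7. KC and EC overlapped, as did LSEC and EC. The contrasts in normal liver were 2.39 in KC (SE 0.57, adjusted p 0.00182), 1.96 in LSEC (SE 0.47, adjusted p 0.00185) and 1.92 in EC (SE 0.57, adjusted p 0.0118). Blood had 41.8 and 37.7 FPKM, and the biliary sorts 1.36 to 11.5. Hepatocytes held 4.28 to 7.73 FPKM in normal liver and 8.17 to 17.7 after PH, so Ly96 was the most abundant of the 10 genes there on this length-scaled measure in normal liver.

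Cd14, which passes lipopolysaccharide to the Tlr4 complex (chr18:36884718-36886469, minus), had a second site of abundance in the biliary sorts. Normal KC held 237 and 236 FPKM, normal BEC 59.0, 83.3, 50.1 and 61.8, and normal cBEC 64.2, 57.6, 55.2 and 54.9. BEC and cBEC overlapped each other and lay between KC and blood, which had 14.9 and 21.0 FPKM. Normal LSEC had 1.84 to 3.96 FPKM and normal EC 1.74 and 2.12. The contrasts with the other populations in normal liver were 4.61 in KC (SE 0.45, adjusted p 3.8e-08), 2.49 in BEC (SE 0.33, adjusted p 1.59e-06) and 2.37 in cBEC (SE 0.33, adjusted p 3.12e-06). Kupffer markers were also read in the biliary sorts. Their summed level was 76.1 to 303 FPKM in normal BEC, 0.377 and 3.28 in PH BEC, and 0 in PH cBEC, where all 7 markers were at 0 and Cd14 stood at 97.2 and 61.7 FPKM. The part of these markers in the Cd14 values was not tested. Across the 20 group means Cd14 correlated at 0.54 with Tlr5 and at 0.05 with Tlr4, as a description over groups that share libraries between genes.

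Tlr2, the lipopeptide receptor (chr3:83640194-83645530, minus), was above 3 FPKM in every library outside hepatocytes but 1, PH HSC 2, where it was listed at 0. Normal KC held 65.3 and 62.9 FPKM. Normal blood had 20.4 and 16.5, LSEC 20.8, 21.5 and 15.0, EC 14.2 and 11.2, and Thy1 cells 28.1 and 10.6; these 4 overlapped in part. The biliary sorts ranged from 4.02 to 24.0 FPKM over both treatments, and hepatocytes from 0.24 to 0.93. The KC contrast in normal liver was 2.71 (SE 0.38, adjusted p 5.97e-06) and that of LSEC 0.81 (SE 0.32, adjusted p 0.0416). Its partner Tlr1 (chr5:65315919-65323938, minus) was narrower: 21.0 and 19.3 FPKM in normal KC and 13.5 and 11.7 in normal blood. Outside KC and blood, Tlr1 passed 1.20 FPKM only in normal HSC library 1 (4.75), while HSC library 2 was listed at 0. The Kupffer markers summed to 75.5 FPKM in the first and to 900 in the second. How reads shared between Tlr1 and its close relative Tlr6 were assigned is not given in the sources used here.

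Tlr5, the flagellin receptor (chr1:184884919-184906175, plus), was a biliary transcript. Normal BEC held 16.9, 11.2, 16.4 and 13.3 FPKM and normal cBEC 10.2, 12.8, 16.9 and 11.1. PH BEC had 16.2 and 14.8, and PH cBEC 15.5 and 14.5. All 12 of these libraries lay above every library of the other populations, of which PH NPD was highest at 7.78 and 7.44. The contrast in normal liver was 2.58 in BEC (SE 0.15, adjusted p 7.07e-12), 2.39 in cBEC (SE 0.15, adjusted p 2.31e-11), 0.87 in Thy1 cells (SE 0.20, adjusted p 0.00239) and 0.74 in NPD (SE 0.20, adjusted p 0.00673). The 6 biliary markers summed to 860 and 5109 FPKM in normal Thy1 libraries 1 and 2, whose Tlr5 was 3.52 and 5.07 FPKM, and to 3794 and 2574 in normal NPD; their part in these calls was not tested. BEC and cBEC were called higher for the same 3 genes, Tlr3, Tlr5 and Cd14, in both treatments; the backgrounds were 37.1% and 36.8% in normal liver and 26.8% in each after PH. KC was at or below 0.513 FPKM of Tlr5, and both normal HSC libraries were listed at 0.

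**Figure D2:**
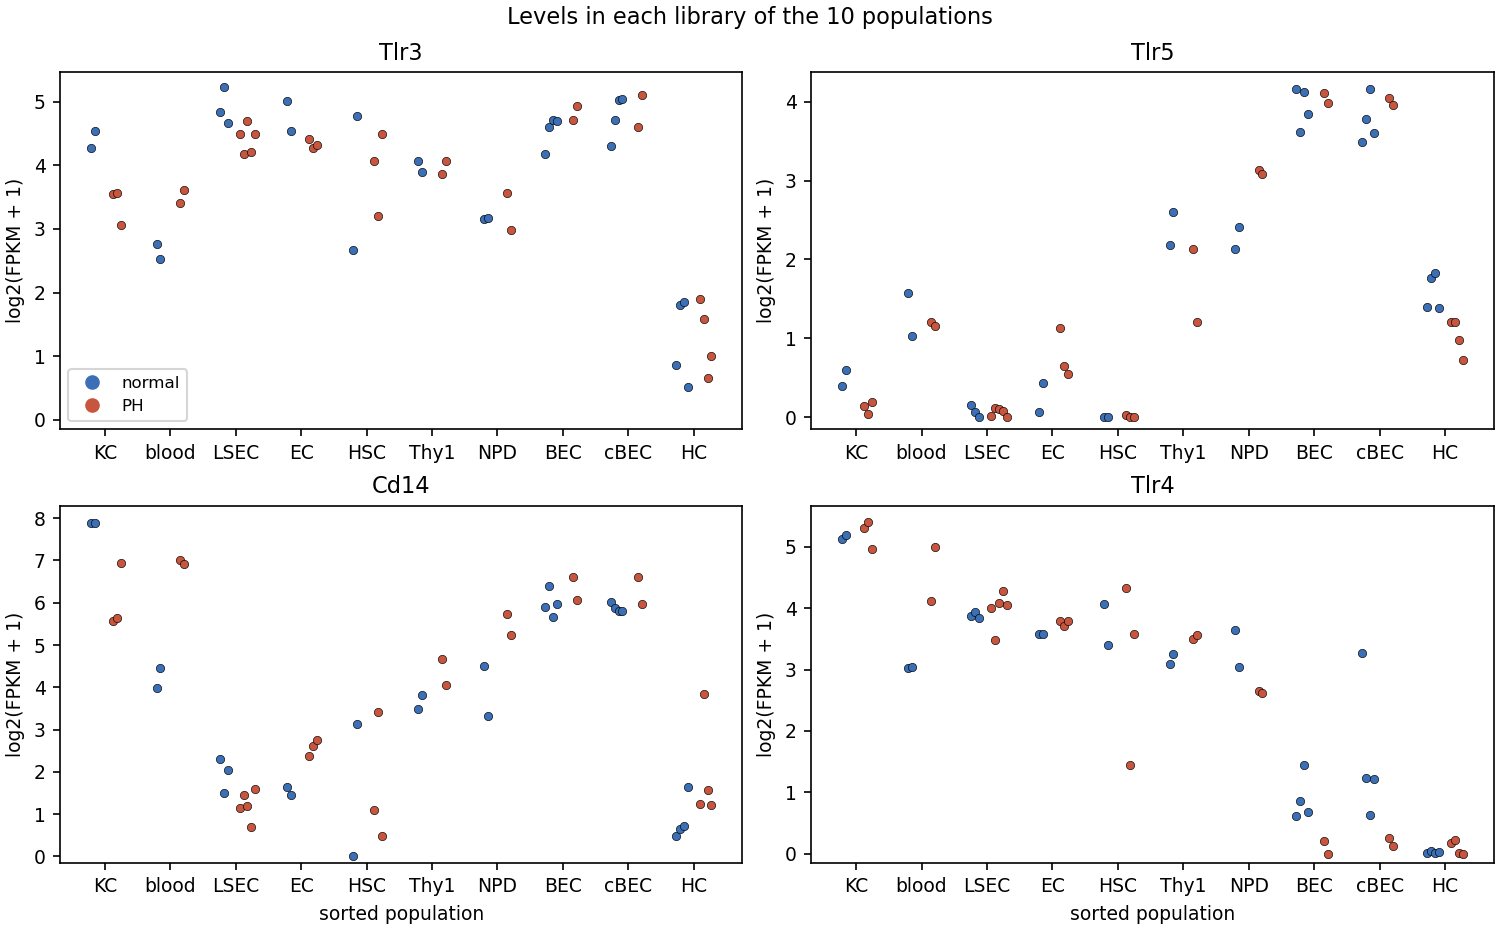
Levels of Tlr3, Tlr5, Cd14 and Tlr4 as log2(FPKM + 1) (vertical axes) in each of the 55 libraries, by population (horizontal axes), with normal libraries in blue and PH libraries in red. Tlr5 is high in the BEC and cBEC libraries only, and Cd14 is high in KC, PH blood, BEC and cBEC with PH NPD reaching their range. Tlr4 is near 0 in the PH BEC and cBEC libraries and low, but above 0, in most normal ones.

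Of the nucleic acid sensors, Tlr3 (chr8:46481019-46495893, minus), which binds double-stranded RNA, was spread over endothelial, biliary and stromal sorts. Normal LSEC held 27.6, 36.5 and 24.3 FPKM, cBEC 18.8 to 32.0, EC 31.2 and 22.3, BEC 17.0 to 25.4 and KC 18.3 and 22.4; each overlapped the next. Blood was at 5.80 and 4.76 and hepatocytes at 0.43 to 2.59. The contrast in normal liver was 1.21 in LSEC (SE 0.30, adjusted p 0.00212), 1.07 in EC (SE 0.36, adjusted p 0.0247), 1.06 in cBEC (SE 0.26, adjusted p 0.00177) and 0.81 in BEC (SE 0.26, adjusted p 0.0118). LSEC was called higher for 4 genes in each treatment, Tlr2, Tlr3, Tlr4 and Ly96 (background 17.1% in normal liver and 19.3% after PH). EC was called higher for Tlr3 and Ly96 in normal liver (background 13.7%) and for Tlr3, Tlr4 and Ly96 after PH (background 17.8%).

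Tlr7 (chrX:163742858-163768503, minus), Tlr8 (chrX:163679055-163702261, minus) and Tlr9 (chr9:106124929-106129207, plus) were transcripts of the KC and blood sorts. Tlr7, a receptor for single-stranded RNA, stood at 71.9 and 65.4 FPKM in normal KC and 44.5 and 32.9 in normal blood. Tlr8, its neighbour on the X chromosome, stood at 64.5 and 52.0 in normal KC and 5.97 and 7.12 in normal blood. Normal KC and normal blood did not overlap for either gene, while PH KC lay within the normal blood range for Tlr7. Tlr9, the receptor for unmethylated CpG DNA, was lower throughout, at 8.21 and 7.71 FPKM in normal KC and 1.07 and 0.427 in normal blood. The normal KC contrasts were 5.08 for Tlr7 (SE 0.34, adjusted p 1.43e-10), 5.19 for Tlr8 (SE 0.33, adjusted p 6.67e-11) and 2.98 for Tlr9 (SE 0.13, adjusted p 3.36e-13). In normal liver Tlr9 reached 1 FPKM in 3 libraries, all of KC or blood, so it passed the filter only through those sorts. Its SE rests in part on libraries near 0, and its adjusted p is not read as support. Outside KC and blood the highest library was 3.99 FPKM for Tlr7 (normal HSC 2), 2.06 for Tlr8 (normal LSEC 1) and 0.646 for Tlr9 (PH Thy1 1). Normal HSC 2 and normal LSEC 1 also had the highest Kupffer marker sums of their groups, 900 and 180.0 FPKM, but Tlr1 and Tlr9 were listed at 0 in normal HSC 2; the part of these markers in the values was not tested.

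**Figure D3:**
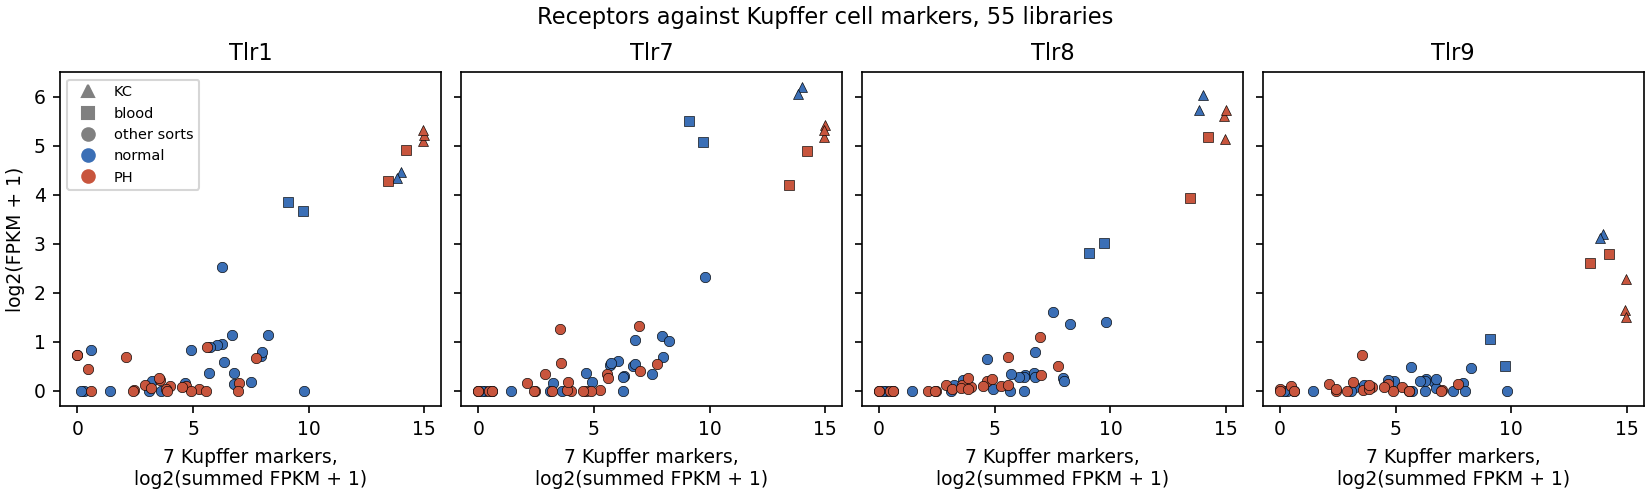
Tlr1, Tlr7, Tlr8 and Tlr9 as log2(FPKM + 1) against the summed level of 7 Kupffer cell markers as log2(summed FPKM + 1), for 55 libraries (triangles KC, squares blood, circles other sorts, blue normal, red PH). The KC and PH blood libraries lie to the right and above most other sorts, which lie near the bottom. Normal blood lies between them in Tlr1 and Tlr8 and near the bottom in Tlr9. In Tlr7 normal blood is below normal KC, at the level of PH KC and above PH blood.

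After PH, most of the calls were lower in the KC sort and higher in the blood sort. Among 64 gene and population pairs with enough signal to test, 8 were higher and 4 lower after PH, against a background of 5.75% higher and 7.61% lower over all genes and populations. All 12 were in KC or blood. KC had Tlr1 higher (background 16.7%) and Tlr3, Tlr7, Tlr9 and Cd14 lower (background 20.1%) among 9 tested. Blood had Tlr1, Tlr2, Tlr3, Tlr4, Tlr8, Tlr9 and Cd14 higher among 10 tested (background 24.3%) and none lower (background 39.7%, 0 of 10 also at an unadjusted p under 0.05). The median change was -0.58 over the 9 genes in KC, beside -0.04 over all genes, and 1.19 over the 10 in blood, beside -0.31 over all genes; quantile normalization moved that blood median of all genes to -0.14.

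In KC, Cd14 had the largest log2 change of the 9 genes tested. Its levels were 237 and 236 FPKM in normal liver and 46.7, 49.0 and 121 after PH, a log2 change of -1.84 (SE 0.43, adjusted p 0.024). The PH libraries were all below the normal ones, and PH KC 3 stood apart from the others. Without PH KC 3 the change was -2.28 (adjusted p 0.000143). Without normal KC 1 or 2, or PH KC 1 or 2, it was -1.85 to -1.61 and the call was lost (adjusted p 0.0613 to 0.148). PH KC 3 also had a summed monocyte and neutrophil marker level of 172 FPKM against 47.6 and 47.9 in the other PH KC libraries; the part of these markers in the value was not tested.

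The endosomal receptors Tlr9, Tlr3 and Tlr7 were lower in KC after PH. Tlr9 went from 8.21 and 7.71 FPKM to 2.14, 1.83 and 3.88 (log2 -1.35, SE 0.28, adjusted p 0.0167). Tlr3 went from 18.3 and 22.4 to 10.8, 10.8 and 7.36 (-1.01, SE 0.21, adjusted p 0.0176). Tlr7 went from 71.9 and 65.4 to 35.3, 41.9 and 39.0 (-0.81, SE 0.13, adjusted p 0.00718). None of the 3 overlapped between the groups. That was so for 9 of the 10 genes in KC, also for genes not called, and the share over all genes was not computed. Tlr1 was the member that was higher, from 21.0 and 19.3 to 33.0, 36.0 and 38.7 FPKM (0.80, SE 0.13, adjusted p 0.00759). Without normal KC 1 or 2 the 4 calls were lost, with adjusted p of 0.0539 and 0.0656 for Tlr1, 0.0814 and 0.124 for Tlr3, 0.069 and 0.0526 for Tlr7, and 0.118 and 0.101 for Tlr9; without PH KC 1 that of Tlr9 was 0.056. In the fit of all groups the calls of Tlr1 (0.126), Tlr3 (0.0738) and Tlr7 (0.132) were lost, and with quantile normalization that of Tlr9 (0.0521).

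The remaining KC members did not pass. Ly96 had 75.6 and 89.8 FPKM in normal KC and 46.4, 53.8 and 65.5 after PH (log2 -0.58, SE 0.18, adjusted p 0.0535). Tlr8 had 64.5 and 52.0 against 47.4, 51.6 and 34.2 (-0.40, SE 0.21, adjusted p 0.199). Tlr2 had 65.3 and 62.9 against 65.6, 72.9 and 129.7 (0.41, SE 0.30, adjusted p 0.339), and Tlr4 differed by 0.06 (SE 0.16, adjusted p 0.788). Marker sums of the KC sort also differed between the treatments. The 7 Kupffer markers summed to 14599 to 16178 FPKM in normal KC and 31235 to 32254 in PH KC, all 7 present in every library. The 6 sinusoidal endothelial markers summed to 3329 and 4606 FPKM in normal KC and to 278 to 509 in PH KC. Tlr3, Tlr4 and Ly96 are also carried by LSEC; the part of these markers in the KC changes was not tested.

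In blood, Cd14 and Tlr2 had the smallest adjusted p. Cd14 went from 14.9 and 21.0 FPKM to 127 and 119.6 (log2 2.73, SE 0.20, adjusted p 0.00108), and Tlr2 from 20.4 and 16.5 to 70.9 and 70.8 (1.89, SE 0.16, adjusted p 0.00133). Both PH libraries lay above both normal libraries for each, which was so for 8 of the 10 genes in blood. The share over all genes was not computed, so this count is not read as a result about the 10 genes. Leaving out each of the 4 libraries in turn gave changes of 2.50 to 2.97 for Cd14 and 1.75 to 2.04 for Tlr2. Tlr9 went from 1.07 and 0.427 to 5.08 and 5.87 (1.91, SE 0.26, adjusted p 0.0036). Tlr4 went from 7.17 and 7.24 to 16.4 and 30.9 (1.52, SE 0.32, adjusted p 0.0132). Tlr8 went from 5.97 and 7.12 to 14.2 and 35.0 (1.64, SE 0.44, adjusted p 0.0269). For Tlr4 and Tlr8 the PH libraries differed from each other by more than the normal libraries did, and PH blood 2 was the higher for both. The change of Tlr8 was 2.26 without PH blood 1 (adjusted p 0.00601) and 1.02 without PH blood 2 (adjusted p 0.0208).

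Tlr3 and Tlr1 changed less in blood. Tlr3 went from 5.80 and 4.76 FPKM to 9.57 and 11.3 (log2 0.86, SE 0.20, adjusted p 0.0158), and Tlr1 from 13.5 and 11.7 to 18.3 and 29.1 (0.83, SE 0.26, adjusted p 0.0442). Tlr7 had 44.5 and 32.9 in normal and 17.4 and 28.8 in PH blood, and did not pass (-0.75, SE 0.30, adjusted p 0.0816). Ly96 differed by 0.42 (SE 0.25, adjusted p 0.206) and Tlr5 by -0.13 (SE 0.24, adjusted p 0.67). Without normal blood 1 or 2, the calls were lost for Tlr1 (adjusted p 0.177 and 0.238), Tlr3 (0.0904 and 0.125), Tlr4 (0.123 and 0.118), Tlr8 (0.189 and 0.152) and Tlr9 (0.0515 and 0.0581). Without PH blood 2 that of Tlr1 was also lost (log2 0.50, adjusted p 0.0671). The fit of all groups lost Tlr1 (0.0909) and Tlr3 (0.116), no filter lost Tlr1 (0.0793) and Tlr8 (0.0565), and the replicate block lost Tlr1 (0.058).

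Marker sums of the blood sort differed between the treatments. The 7 Kupffer markers summed to 544 and 851 FPKM in normal blood and to 10969 and 19203 in PH blood, with all 7 present in all 4 libraries. The 6 sinusoidal markers summed to 738 and 832 in normal blood and to 5828 and 2580 in PH blood. The T and NK cell markers went the other way, from 2398 and 2660 to 30.7 and 67.8, as did the monocyte and neutrophil markers, from 4696 and 3928 to 2242 and 939. B cell markers summed to 786 and 545 in normal and 17.1 and 46.1 in PH blood. Plasmacytoid and other dendritic cell markers, of cells known for Tlr7 and Tlr9, summed to 1002 and 587 in normal and 58.5 and 53.3 in PH blood, and endothelial markers to 337 and 360 in normal and 2256 and 1080 in PH blood. The part of these shifts in the 7 blood calls was not tested.

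**Figure D4:**
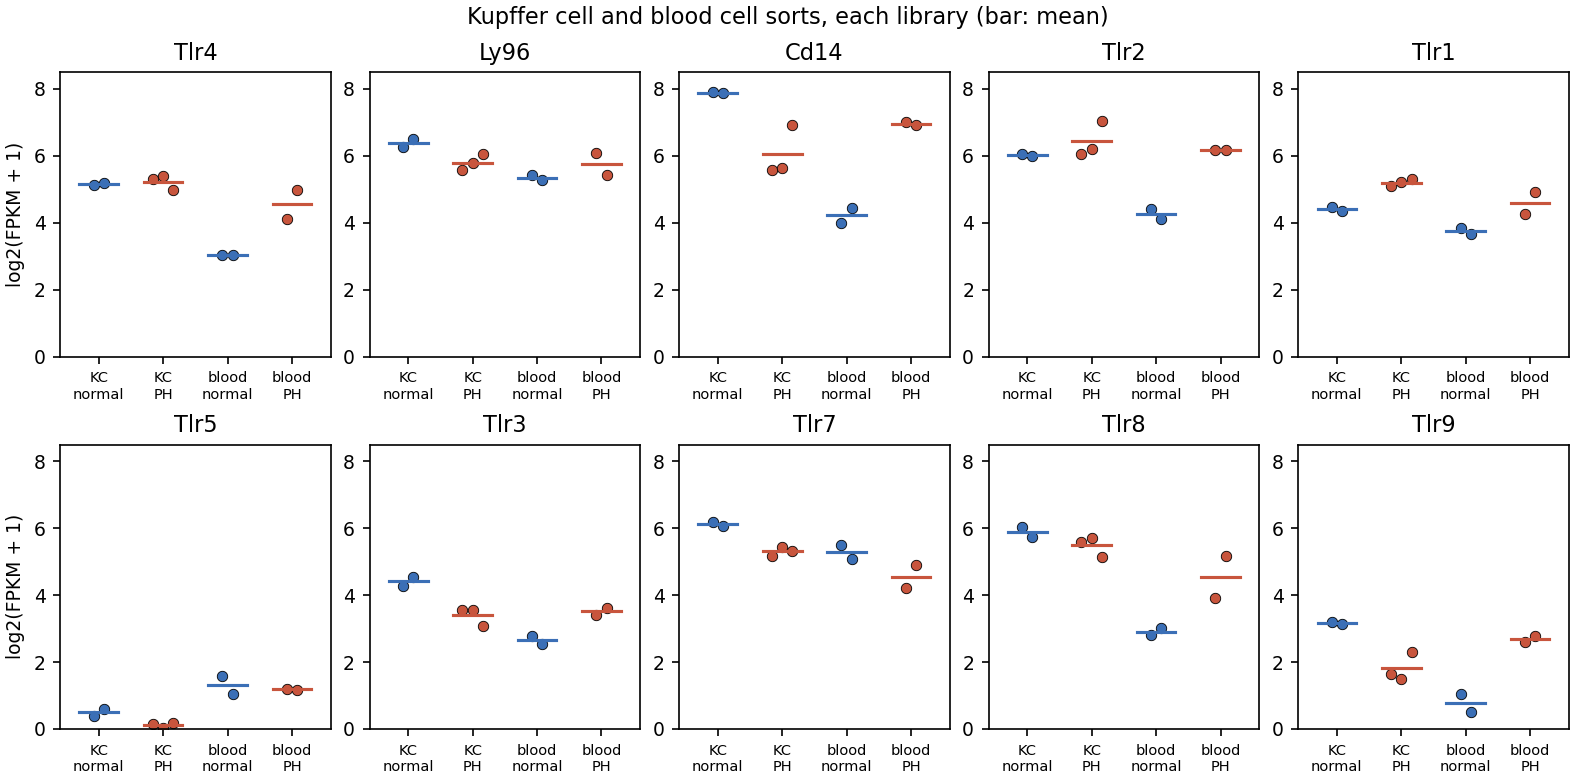
The 10 genes in each KC and blood library as log2(FPKM + 1) (vertical axes), with points for libraries, bars for group means, blue for normal and red for PH. PH blood is above normal blood for Cd14, Tlr2, Tlr4, Tlr8 and Tlr9, and PH KC is below normal KC for Cd14, Tlr3, Tlr7 and Tlr9.

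The difference between these responses was tested directly in a fit of all 55 libraries, a contrast chosen after the calls were seen. The change in KC minus the change in blood was -4.58 for Cd14 (log2, SE 0.96, adjusted p 0.000188), -3.26 for Tlr9 (SE 0.24, adjusted p 3.87e-14), -2.03 for Tlr8 (SE 0.53, adjusted p 0.00227) and -1.88 for Tlr3 (SE 0.59, adjusted p 0.011). These 4 passed, against a background of 16.3% of genes lower. The fit pools the spread of all 20 groups, and no library outside KC and blood reached 1 FPKM of Tlr9. Its SE and adjusted p therefore rest in part on libraries near 0. In the fits of single populations the SE of its change was 0.28 in KC and 0.26 in blood. For Tlr2 it was -1.49 (SE 0.71, adjusted p 0.102) and for Tlr4 -1.46 (SE 0.71, adjusted p 0.112). For Tlr1 and Tlr7 it was -0.03 and -0.07 (SE 0.53 and 0.54).

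The same fit compared KC with blood within each treatment. In normal liver 6 of the 10 genes were higher in KC (background 16.5%): Cd14 by 3.67, Tlr8 by 2.97, Tlr9 by 2.38, Tlr4 by 2.12, Tlr3 by 1.76 and Tlr2 by 1.75 on the log2 scale, with adjusted p of at most 0.00611. Tlr5 was lower in KC by -0.81 (background 26.3%). After PH none of the 10 was called higher in KC (background 1.78%), and Tlr5 (-1.06, SE 0.23, adjusted p 0.000614) and Tlr9 (-0.88, SE 0.17, adjusted p 7.96e-05) were lower in KC than in blood (background 11.9%). At an unadjusted p under 0.05, Tlr7 and Tlr8 were higher in KC after PH (0.76 and 0.94, adjusted p 0.205 and 0.0804).

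Over all 10 populations at once, the change after PH differed between populations for 7 of the 10 genes by the moderated F test (limma, background 47.8%): Tlr9 (adjusted p 1.34e-10), Ly96 (0.0022), Tlr5 (0.00242), Cd14 (0.00583), Tlr2 (0.0119), Tlr8 (0.0226) and Tlr4 (0.036). Tlr1 (0.0572), Tlr3 (0.215) and Tlr7 (0.263) did not pass. The value of Tlr9 rests in part on libraries near 0, since none outside KC and blood reached 1 FPKM. With a pseudocount of 0.1 in place of 1, 4 genes passed, and without normal blood 2 also 4.

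In the other 8 populations limma called none of 45 pairs tested, while 4 were higher and 5 lower at an unadjusted p under 0.05. Over all genes, 9.65% were higher and 5.51% lower in NPD, 4.15% and 4.31% in LSEC, 1.78% and 4.41% in HC and 0.233% and 1.57% in BEC. Few genes of any kind were called in the other 4: 0.0454% higher and 0.0227% lower in cBEC, 0.0249% and 0% in EC, 0.00853% and 0% in HSC, and 0.00747% and 0% in Thy1 cells. The duct sort NPD came nearest. Cd14 in NPD had 21.7 and 9.04 FPKM in normal liver and 52.4 and 36.7 after PH (log2 1.57, SE 0.42, adjusted p 0.0656), and Tlr5 had 3.38 and 4.33 against 7.78 and 7.44 (0.83, SE 0.23, adjusted p 0.0673). The groups did not overlap for either gene, which was so for 5 of the 10 genes in NPD. The share over all genes was not computed, so this count is not read as a result about the 10 genes. Cd14 in NPD passed with upper-quartile scaling (adjusted p 0.0394) and without normal NPD 1 (0.0151), and Tlr5 passed in the fit of all groups (0.0223) and without normal NPD 2 (0.0328). Kupffer markers in NPD summed to 256 and 107 FPKM in normal liver and to 6.50 and 10.9 after PH. The biliary markers summed to 3794 and 2574 FPKM in normal NPD and 4729 and 3946 after PH. Those for Thy1 cells and mesothelium went the other way, from 5178 to 5665 FPKM in normal NPD to 3154 to 3602 after PH. The part of any of these lists in the Cd14 and Tlr5 values was not tested.

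Ly96 in HSC was listed at 0 in normal library 1 and stood at 8.62 in library 2, against 24.7, 59.5 and 19.5 FPKM after PH (log2 3.35, SE 0.92, adjusted p 0.434; 0.000108 in the fit of all groups). In the biliary sorts Cd14 was 50.1 to 83.3 FPKM in normal BEC and 96.6 and 65.9 in PH BEC, and Tlr5 overlapped between treatments in both BEC and cBEC. LSEC had Tlr4 at 10.2 to 18.5 FPKM after PH against 13.3 to 14.4 before, with overlap. Tlr3 in LSEC had a median of 21.6 FPKM after PH and 27.6 before (log2 -0.49, SE 0.18, adjusted p 0.127).

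The wider pathway was read from 57 other genes in 5 lists: the other mouse receptors, trafficking proteins and co-receptors, adaptors and kinases, inhibitors, and genes that these receptors are known to induce. In KC 4 of 55 tested were higher and 16 lower after PH, beside 16.7% and 20.1% of all genes. In blood 13 of 54 were higher and 12 lower, beside 24.3% and 39.7% of all genes, so the higher share was near that of all genes and the lower share under it. Of the 4 other receptors, 1 was higher and 2 lower in KC, and 1 was higher in blood. The higher one in both was Tlr13, a sensor of bacterial ribosomal RNA: from 32.1 ± 3.80 FPKM (SD, n = 2) to 91.2 ± 15.5 (n = 3) in KC (log2 1.47, SE 0.18, adjusted p 0.00343) and from 23.6 ± 4.15 (n = 2) to 58.5 ± 8.86 (n = 2) in blood (1.28, SE 0.20, adjusted p 0.00558). Tlr13 was also the gene closest to Tlr1 over the 20 group means (Pearson r 0.989).

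The induced genes had the largest median change of the 5 lists in KC. Of 16 tested in KC, 8 were lower and none higher (limma, 0 higher and 9 lower at an unadjusted p under 0.05), beside 20.1% of all genes lower and 16.7% higher. They had a median change of -2.28 beside -0.04 for all genes. The cytokine Il1b went from 600.5 ± 138 FPKM (SD, n = 2) to 74.1 ± 20.5 (n = 3), a log2 change of -3.02 (SE 0.26, adjusted p 0.00169). Il6 changed by -3.13, Il10 by -2.12, the chemokines Cxcl2 by -3.98, Cxcl10 by -3.61 and Ccl5 by -2.71, and Ptgs2, the inducible prostaglandin synthase, by -2.45. Cxcl1 was at 51.7 ± 16.5 FPKM (n = 2) in normal KC and listed at 0 in all 3 PH libraries. Cxcl1 is also carried by hepatocytes, where it was higher after PH (25.7 ± 20.2 to 96.9 ± 23.1 FPKM, n = 4 each, adjusted p 0.0397). Of 7 inhibitors 4 were lower in KC (20.1% of all genes) and none higher (16.7%), also at an unadjusted p under 0.05. Among them were the NF-kappa B inhibitor Tnfaip3 (A20), from 57.4 ± 18.1 to 14.1 ± 6.60 FPKM (-2.0, SE 0.38, adjusted p 0.0131), and Socs1 (-2.28). Of 21 adaptors and kinases 2 were higher and 2 lower, both under the shares of all genes in KC.

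Of 15 induced genes tested in blood, 5 were higher and 2 lower, beside 24.3% and 39.7% of all genes. The monocyte chemokine Ccl2 went from 3.37 ± 0.20 FPKM (SD, n = 2) to 152 ± 13.4 (n = 2), a log2 change of 5.13 (SE 0.15, adjusted p 0.000766), and Cxcl2 and Saa3 changed by 4.57 and 4.98. Ccl5, which T and NK cells are known to express, went from 1472 ± 69.7 to 42.0 ± 12.9 FPKM (-5.13, SE 0.25, adjusted p 0.000766), beside the lower T and NK cell marker sums given above, whose part was not tested. Lbp, the plasma protein that delivers lipopolysaccharide to Cd14, went from 5.66 ± 0.40 to 68.2 ± 38.2 FPKM (3.26, SE 0.41, adjusted p 0.00319). Lbp is also carried by LSEC, and sinusoidal markers summed to 738 to 832 FPKM in normal and 2580 to 5828 in PH blood. Their part in the Lbp change was not tested. Of 21 adaptors and kinases 4 were higher and 7 lower, and of 7 inhibitors 3 were lower (Sigirr, Socs1 and Tnfaip3) and none higher, also at an unadjusted p under 0.05. Beside 24.3% of all genes higher and 39.7% lower in blood, nothing about these 2 lists is read from their counts.

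Elsewhere fewer pathway genes changed. In NPD 7 of 44 were higher (background 9.65%) and 2 lower (background 5.51%): the adaptor Myd88 went from 35.1 ± 5.82 to 72.0 ± 4.55 FPKM (SD, n = 2 each, log2 1.02, adjusted p 0.0272), Il6 from 2.60 ± 1.46 to 34.9 ± 3.88 (3.38, adjusted p 0.00962), and Ccl2 from 6.63 ± 4.09 to 96.5 ± 57.2 (3.65, adjusted p 0.0192). In LSEC 2 of 40 were higher (background 4.15%) and 2 lower (background 4.31%). Lbp went from 81.0 ± 24.0 FPKM (n = 3) to 306.7 ± 33.9 (n = 5) there (1.94, SE 0.20, adjusted p 0.00125), and Ccl2 changed by 2.07. In BEC 1 of 44 was higher (Ccl2, background 0.233%) and 4 were lower (background 1.57%): Cd36, Ly86, Il1b and Ccl5, beside Kupffer marker sums of 76.1 to 303 FPKM in normal and 0.377 and 3.28 in PH BEC, whose part was not tested. In hepatocytes 3 of 34 were higher, Cxcl1, Icam1 and Saa3 (background 1.78%), and 2 lower (background 4.41%). No pathway gene was called in cBEC, EC, HSC or Thy1 cells (limma, 176 tests, 20 higher and 11 lower at an unadjusted p under 0.05).

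Likeness was measured by Pearson r over the 20 group means of log2(FPKM + 1). Tlr7 was closest to Gpr65 (r 0.996), Nfam1 (0.992) and Pirb (0.991), and Tlr8 to Clec4a2 (0.996), Trpm2 (0.994) and Lilra5 (0.993). Tlr5 was closest to Cd276 (0.978), Celsr1 (0.974) and Patj (0.973), and Tlr4 to Hip1 (0.965), Mertk (0.961) and Calhm2 (0.959). For Tlr2, Tlr3, Tlr9, Cd14 and Ly96 the closest genes were Atp8a1 (0.963), Asxl1 (0.975), Nlrp3 (0.967), Pak1 (0.932) and Ocel1 (0.90). Among the members Tlr1, Tlr7 and Tlr8 correlated at 0.96 to 0.97 with each other, and Tlr4 at 0.75 with Ly96, at 0.05 with Cd14 and at -0.68 with Tlr5. These are descriptions over 20 groups drawn from the same libraries, with no test.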

How the data were processed

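RNA of sorted mouse liver populations was sequenced in 55 libraries. Fragment values (FPKM) were deposited by the authors for 36141 transcript rows; the submitters' processing notes name CASAVA 1.8.2, Bowtie 1.0.0 and mm9. Per the file headers each replicate has its own column, and hepatocyte values were deposited to 2 decimals. How fragments of similar genes were assigned is not given in the sources used here. Starts in the table count from 0 and were shifted to count from 1. A symbol with several rows was read from that of highest overall mean.

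Groups followed the titles. Comparisons were fitted to log2(FPKM + 1) with limma 3.58.1 (R 4.3.3), using trended, robust variances, two-sided, Benjamini-Hochberg adjusted over all genes with at least 1 FPKM in as many libraries as the smallest group. PH was compared with normal within each population; a fold change on this scale understates that of low genes. Each population was compared with the mean of the other 9 within a treatment, and responses were compared across all 20 groups. The members and lists were chosen with earlier results of these data known. All members were named; pathway genes were named where they passed with a log2 change of 1 or more, and the 3 genes most like a member by Pearson r, with no test. Alternatives were a pseudocount of 0.1, no filter, quantile and upper-quartile scaling, mean over rows, genes under 10 FPKM in hepatocytes, a replicate block, a fit of all groups and leaving out each library. Contrasts of KC with blood were added after seeing the data. Fits were tested on simulated data. Figures used Python 3.11.15 and matplotlib 3.10.9.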

Additional observations from a re-analysis of the deposited data

Results flagged for a closer look

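Of 50 values over groups of at least 4 libraries, 12 had a library standing apart from the others of its group. Chance gives about 2.5 only if the log2 values follow a normal distribution. For Tlr1, Tlr7, Tlr8 and Tlr9 in normal HC and Tlr7 in PH HC, 3 libraries were listed at 0, which makes a flag certain. The 12 are therefore not read as an excess over chance. Most lay in hepatocyte and biliary libraries that also held more Kupffer markers. Normal HC 4 was highest of its group for Tlr1 (0.14 FPKM), Tlr7 (0.12), Tlr8 (0.09) and Tlr9 (0.06) and lowest for Ly96 (4.28). Its Kupffer markers summed to 8.39 FPKM, against 0.13 to 1.66 in the other normal HC libraries. PH HC 2 was highest for Cd14 (13.3 FPKM) and Tlr7 (0.33), with a Kupffer sum of 126 against 4.36 to 14.9. Normal BEC 3 was highest for Tlr8 (1.57) and Tlr9 (0.386), with a Kupffer sum of 303 FPKM, the highest of its group. The part of these markers was not tested. Normal BEC 2 was lowest for Ly96 (1.36 against 9.56 to 11.2), and normal cBEC 1 highest for Tlr8 (0.256). Ly96 in PH LSEC 2 was 77.1 FPKM against 44.3 to 51.5 in the other PH LSEC libraries.

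The change after PH differed between populations for Tlr9 (adjusted p 1.34e-10), Ly96 (0.0022), Tlr5 (0.00242), Cd14 (0.00583), Tlr2 (0.0119), Tlr8 (0.0226) and Tlr4 (0.036), by limma's moderated F test. Between KC and blood it differed for Cd14 (-4.58 on the log2 scale), Tlr9 (-3.26), Tlr8 (-2.03) and Tlr3 (-1.88), each given as the change in KC minus that in blood. The spread used for Tlr9 in both tests comes in part from libraries near 0.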

How the results depend on the processing

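Counts of members called moved with single libraries. The 8 higher after PH were 3 to 9 when a library was left out, with 3 without normal blood 1 or 2, and 6 to 9 under the other settings. The 4 lower were 0 to 5, with 0 without normal KC 1 or 2 and 2 without PH KC 1, and 4 to 5 under the other settings. The 7 members whose response differed between populations were 4 with a pseudocount of 0.1, and 4 to 9 when a library was left out. The 27 gene and population pairs above the other populations in normal liver were 25 to 31 when a library was left out and 23 to 28 under the other settings, and the 30 pairs after PH were 29 to 33 and 26 to 32. No call reversed. Of 96 repeats of the 12 PH calls under other settings, 87 kept their call and 9 lost it: Tlr1 in blood (adjusted p 0.0793 without a filter, 0.058 with the replicate block, 0.0909 in a fit of all groups), Tlr8 in blood (0.0565 without a filter), Tlr9 in KC (0.0521 with quantile normalization), and in the fit of all groups Tlr1, Tlr3 and Tlr7 in KC (0.126, 0.0738 and 0.132) and Tlr3 in blood (0.116). The cause was not tested. Leaving out a normal library of a pair leaves 1, assumed to vary like the others.

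Replicate numbers are shared in the labels with nothing that ties them to an animal or day, and of 23 same-numbered pairs 4 correlated at over 0.1 (-0.67 to 0.57). With the number as a replicate block the counts were 8 higher, 5 lower, 7 responses that differed, 26 in normal liver and 28 after PH; Cd14 in NPD passed (adjusted p 0.00439). The depth is unknown, so no limit of detection can be set for low values such as Tlr9 outside KC and blood.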
